A study of Mus musculus with 577 samples.

Results

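The cells described here are 70 single granulosa cells that were cut by laser capture microdissection (LCM) from sections of 1 ovary of 1 mouse, out of 577 samples in the whole series. They were taken as all granulosa cells that the labels place in the LCM arm of the experiment on a single mouse, and the labels divide them by position into 35 neighboring cells, beside the oocyte, and 35 non-neighboring cells, away from it. The mouse was an 8-week-old female in proestrus with no stated genetic change or treatment, and its other ovary was dissociated for a different arm of the experiment. The frozen ovary was sectioned, fixed in alcohol and stained with cresyl violet, and each cut cell was lysed with DRaqL, a detergent step that is quenched before reverse transcription, and amplified by Smart-seq2. From the same ovary 8 oocytes of secondary to antral follicles were cut and sequenced in the same way, which served here as the reference for oocyte RNA. Since all cells came from 1 mouse and the labels do not name the follicle of each cell, each class counted as 1 sample. SDs therefore give the spread over cells, no test between the classes was possible, and differences are reported as sizes.

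Granulosa cells surround and feed the growing oocyte. Those beside it send processes through the zona pellucida, couple to it through gap junctions and receive GDF9 and BMP15, whereas those nearer the follicle wall face the basal lamina and the theca cells that lie outside it. In antral follicles the inner cells become the cumulus, known for glycolysis that supplies the oocyte, and the outer ones the mural layer, which acquires luteinising hormone receptors and makes steroids. Proestrus is the day of the preovulatory surge of gonadotropins.

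Each cell was tagged during reverse transcription by a primer with 1 of 12 in-line indexes between the handle shown here and the oligo-dT stretch, so that 10 to 12 cDNAs could be sequenced as 1 library pool. The handle is shown because the cells of a pool share a library, and the capitals mark its first 23 of 42 bases, which are also the primer used for cDNA amplification.
handle of the indexed primer: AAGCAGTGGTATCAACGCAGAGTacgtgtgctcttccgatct
The pools were uneven between the classes. Pools 1, 3 and 6 held 6, 8 and 8 neighboring against 1, 3 and 3 non-neighboring cells, pools 2 and 7 held 2 neighboring and 9 non-neighboring cells each, and pools 4 and 5 held 4 against 4 and 5 against 6. Pools 2 and 6 also held 1 oocyte each, and the other 6 oocytes formed pool 8. For this reason the mean of the differences within the 7 pools that held both classes ("within pools") is given below where it turns the direction of a printed difference or list median, or moves it by over 1.5 times, unless both values are within 0.1 of 0.

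The neighboring libraries held from 21733 to 928347 counted reads with a median of 233125, and the non-neighboring ones from 55442 to 3745815 with a median of 309128. In neighboring cells 3958 to 8257 protein-coding genes had at least 1 read, with a mean of 6183 ± 1111 (SD, n = 35 cells), against 3202 to 10541 and 6944 ± 1680 (n = 35) in non-neighboring cells. When every library was thinned to 21733 reads, the means were 3760 ± 629 and 3769 ± 807 genes, so that the gap in detected genes was not seen at equal depth. No pair of cells looked like a library deposited more than once, with a highest Pearson's r of 0.641 and medians of 0.494 among neighboring pairs, 0.510 among non-neighboring pairs and 0.495 across the classes over 18465 genes. On a principal component analysis of 15020 genes, PC1 took 6.04% of the variance and separated the class means by 0.34 SD, and PC2 took 3.46% and separated them by 0.01 SD. The position of a cell was thus not a main axis of these profiles. PC1 instead followed the number of detected genes, with a descriptive r of -0.72 over the 70 cells. Its r was 0.55 with the log10 level of the oocyte RNA described below and -0.37 with log10 total reads.

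Levels are given as log2 (RPM+1), where RPM are the reads of a gene scaled to the total of its library over protein-coding genes, and a difference is the neighboring mean minus the non-neighboring mean on this scale, which understates the fold of low genes. Inha, the inhibin alpha subunit that granulosa cells secrete, was read in 35 of 35 cells of both classes (exact binomial 95% interval 90.0% to 100.0%; such intervals cover counting error only). Its lowest, median and highest levels were 7.32, 10.28 and 12.28 in neighboring and 7.91, 10.36 and 11.64 in non-neighboring cells, against a mean of 4.70 in the oocytes. The classes overlapped over nearly all of their range, with a difference of 0.09, or -0.08 within pools, which was far inside the SDs of 1.10 and 0.82. The 16 granulosa cell genes together summed to 544 to 10744 RPM with a median of 6943 in neighboring cells, 2735 to 12607 with a median of 5918 in non-neighboring cells and 203 to 486 in oocytes. Inha and this sum therefore matched the label of granulosa cells, whereas Amh, which is made by granulosa cells of small growing follicles, was read in 10 neighboring and 11 non-neighboring cells. The aromatase gene Cyp19a1 was read in 6 and 9 cells.

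Oocyte transcripts were read in both classes of granulosa cells and were higher in the neighboring class. Over 14 oocyte genes, which include those for GDF9, the zona pellucida proteins and the oocyte-specific histone H1foo, the 8 oocytes summed to 14665 to 29654 RPM with a median of 26813. Neighboring cells summed to 5.5 RPM at the lowest, 350.0 at the median and 28588 at the highest, and non-neighboring cells to 0, 123.8 and 18233. The difference of the mean log2 sums was 1.91, and within pools it was 1.92. The neighboring median was the higher one in 6 of the 7 pools, with pool 7 the exception (206.5 against 307.9 RPM), so that the order was not due to 1 pool. A further list of 32 oocyte genes gave medians of 766.6 and 241.3 RPM, beside 38516 in oocytes.

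**Figure D1:**
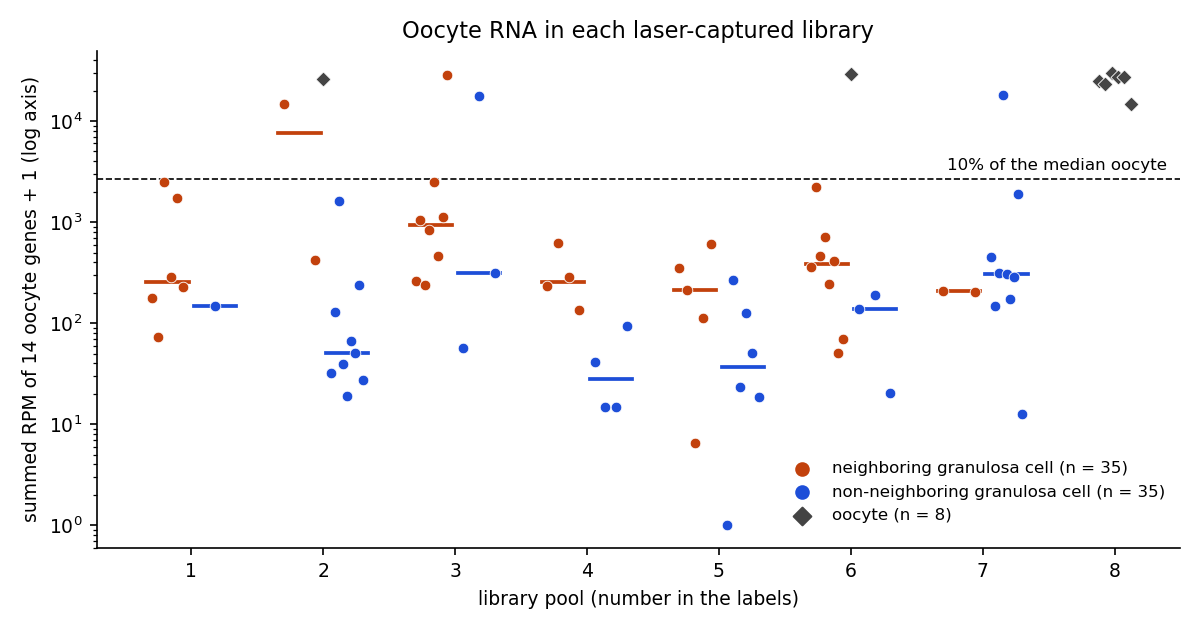
Summed RPM of 14 oocyte genes plus 1 on a log axis, for each library by library pool, with neighboring cells in red, non-neighboring cells in blue, oocytes as diamonds, short lines at the median of each class in a pool, and a dashed line at 10% of the oocyte median. The neighboring median is the higher one in 6 of 7 pools, and 4 granulosa cells, 2 of each class, lie above the dashed line.

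Gdf9, the growth factor by which the oocyte acts on its granulosa cells, was read in 30 neighboring and 32 non-neighboring cells, with medians of 5.23 and 3.77 and highest levels of 12.13 and 12.22, against a mean of 12.34 in oocytes. Its difference was 0.94. Zp3, a zona pellucida glycoprotein and the sperm receptor, had medians of 3.26 and 2.96 in 27 and 25 cells and a difference of 0.89 with the higher mean in neighboring cells in 4 of 7 pools, although its mean over cells was 149 RPM in neighboring and 158 RPM in non-neighboring cells. At the libraries' own depths both genes were thus read in most cells of both classes, at levels far below the oocytes except in a few cells. When every library was thinned to the depth of the shallowest, Gdf9 was read in 18 neighboring and 10 non-neighboring cells and Zp3 in 13 and 8. Their differences were then 1.87 and 1.06. Counts of cells with reads are given at own depth unless stated, and the non-neighboring libraries were deeper at the median. H1foo, the linker histone of the oocyte, differed by 2.32 with medians of 6.10 and 2.60, although its mean over cells was 250 RPM in neighboring and 264 RPM in non-neighboring cells, of which non-neighboring cell 20 held 7813 RPM, and Nlrp14, a maternal-effect gene, by 2.61 with medians of 4.90 and 2.90. Of the 14 oocyte genes 14 had a positive difference, with a median of 1.38 and 4 above 1.8, a size that 0.812% of all genes passed in this direction, and of the 32 further ones 31 could be compared, with a median of 1.10 and 6 above 1.8. The median of the further list was 0.75 within pools and 0.59 without pool 3. Gene families of near-identical copies, such as Obox and Oog, were counted as the deposited table gives them, and reads may be split among their members.

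Of the granulosa cells, 4 of 70 (5.71%, 1.58% to 14%), held at least 10% of the oocyte median, which is 2681 RPM, and they were divided evenly between the classes. Neighboring cell 22 of pool 3, with 799385 reads, held 28588 RPM or 106.6% of the oocyte median, reads on 42 of 46 oocyte genes and 544 RPM over the granulosa cell genes. This library was closer to an oocyte than to the other granulosa cells in both sums. The other 3 were more narrow. In neighboring cell 31 of pool 2, with 70831 reads and 14697 RPM, Oosp1 made up 85% of the sum. In non-neighboring cell 20 of pool 7, with 111229 reads and 18233 RPM, Izumo1r and H1foo made up 55% and 42.9%. Non-neighboring cell 29 of pool 3, with 55442 reads and 17676 RPM, had 41.7% on Oosp1, 28.4% on Zp3 and 26.9% on Gdf9. Over the further oocyte genes neighboring cell 22 held 32320 RPM and non-neighboring cell 29 held 9325 RPM. Neighboring cell 31 held only 593 RPM and non-neighboring cell 20 only 998 RPM there, beside class medians of 766.6 and 241.3 RPM. These 4 cells are called rich in oocyte RNA below by their sum over the 14 genes alone. Without these 4 cells the difference in the oocyte sum was 2.02. Of the 4 cells 1 lay in a pool that held a library labeled as an oocyte. Pools 1, 3, 4, 5 and 7 held no such library, although pool 3 held neighboring cell 22 and non-neighboring cell 29. Oocyte transcripts were read in these pools, with neighboring medians from 206.5 RPM in pool 7 to 935 RPM in pool 3. Whether reads passed between the libraries of a pool was not tested.

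A further library stood apart. Non-neighboring cell 9 of pool 7, with 793552 reads, held 7977 RPM over the 7 theca genes, where the next of its class held 769. Cyp17a1, the androgen-making enzyme that defines theca cells, reached 6412 RPM in it against at most 134.9 in the other 34 non-neighboring cells, Lhcgr, the receptor of luteinising hormone, 7338 against 89.9, and Cyp11a1, the first enzyme of steroid synthesis, 5826 against 278. Its Inha stood at 239 RPM, below the median of 1326 in the other 34, and Fshr at 3.8. This cell went against the label of a granulosa cell in its leading genes. Values that rest on it, and on the 4 cells rich in oocyte RNA, are given below with and without them.

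Over all 15020 genes above 4 in at least 1 cell, 122 (0.812%) were higher in neighboring cells by more than 1.8 and 166 (1.11%) were lower, and 856 (5.7%) and 1239 (8.25%) differed by more than 1. The median of all genes was -0.06. Scaling by TMM, which estimates library sizes from the bulk of the genes, lowered the median to -0.17 and turned the split into 64 higher and 275 lower, so that 18.9% of the genes past 1.8 were higher, against 42.4%. The genes named next, which are the 10 most different ones on either side among genes averaging at least 4 in a class, kept their sign there and under the other 13 settings tried. They were chosen by the size of their difference in these same cells, so that a kept sign is no independent support. Within pools 175 (1.17%) were higher and 347 (2.31%) lower. Of the 122 higher genes, 78 were higher in at least 6 of the 7 pools and 27 in all 7, and of the 166 lower ones 36 were lower in all 7. Pool counts of genes chosen in this way, here and for single genes below, only describe how the difference was spread. No share over all genes stands beside them. The 122 stood at a median level of 6.83 in the oocytes and the 166 at 3.65, without an oocyte level over all genes beside them.

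**Figure D2:**
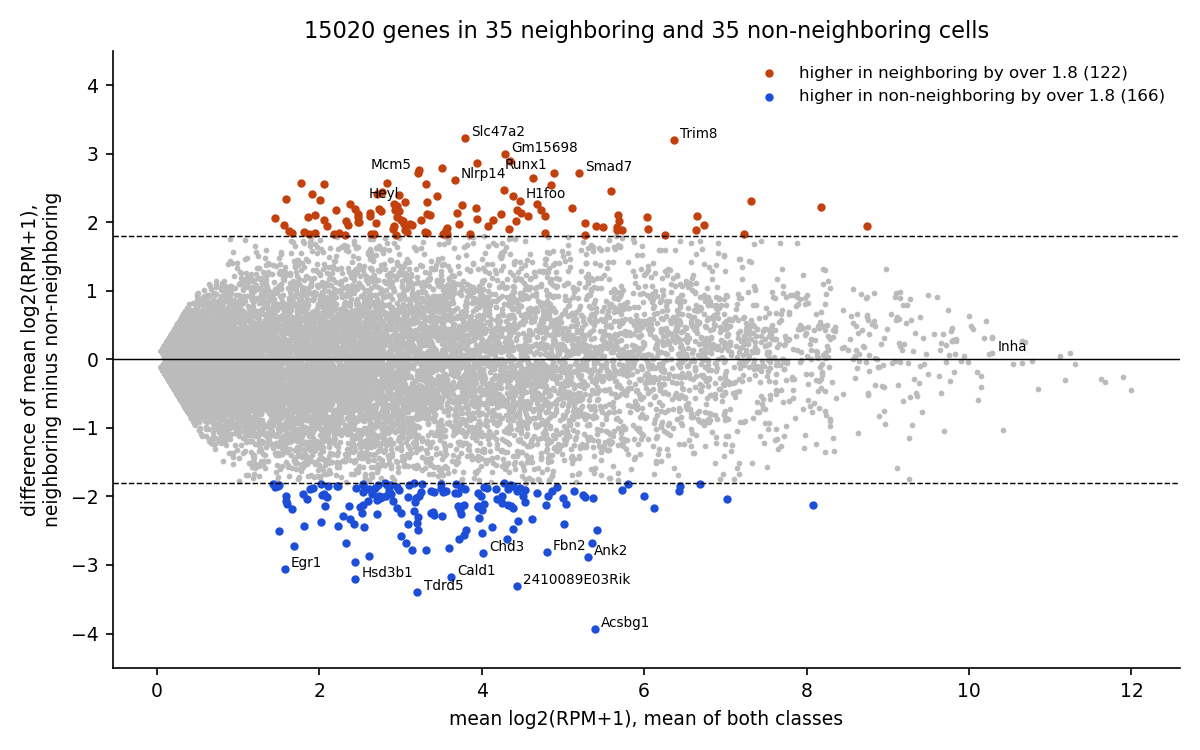
Difference of mean log2 (RPM+1), neighboring minus non-neighboring, against the mean level of both classes, with 1 point for each of 15020 genes and dashed lines at 1.8 in both directions. The 122 red genes lie above the upper line, with Slc47a2, Trim8 and Gm15698 highest, the 166 blue genes lie below the lower line, with Acsbg1 and Tdrd5 lowest, and Inha lies near 0 at the right.

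Trim8, a ubiquitin ligase of cytokine signaling (GRCm38 chr19:46501702-46516848, + strand), was read in all 35 neighboring cells with a lowest, median and highest level of 2.86, 8.12 and 10.54, against 0, 5.60 and 9.06 in non-neighboring cells. Its difference was 3.20, the neighboring mean was the higher one in 7 of 7 pools, and its mean in oocytes was 4.82, below that of the neighboring cells at 7.97. Slc47a2, an exporter of organic cations, had medians of 6.77 and 0 and a difference of 3.23, with reads in 28 and 17 cells. Runx1, a transcription factor of the periovulatory granulosa cell (chr16:92601466-92826149, - strand), had medians of 7.68 and 3.86 and highest levels of 11.11 and 8.70, with a difference of 2.72 and the same direction in 7 of 7 pools. Its mean of 0.61 in oocytes set it apart from the oocyte transcripts above.

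Smad7, an inhibitory SMAD that TGF-β and BMP signals induce, had medians of 7.26 and 4.89, a difference of 2.71 in 7 of 7 pools and a mean of 0.00 in oocytes. Kazald1, a secreted protein related to the IGF-binding proteins, had medians of 6.30 and 2.36 and a difference of 2.90, and Nup210, a nuclear pore glycoprotein, had medians of 5.84 and 0 and a difference of 2.79, both in 7 of 7 pools. These genes were low in oocytes, at 1.41 and 2.39. Gm15698, Uchl1 and Fam46c differed by 3.00, 2.86 and 2.76, the last by 1.45 within pools. Their means in oocytes, 11.69, 9.71 and 10.27, were far above those of the granulosa cells. The part of oocyte RNA in these 3 differences was not tested. The remaining gene of these 10, Mcm5, belongs to the replication genes described below.

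**Figure D3:**
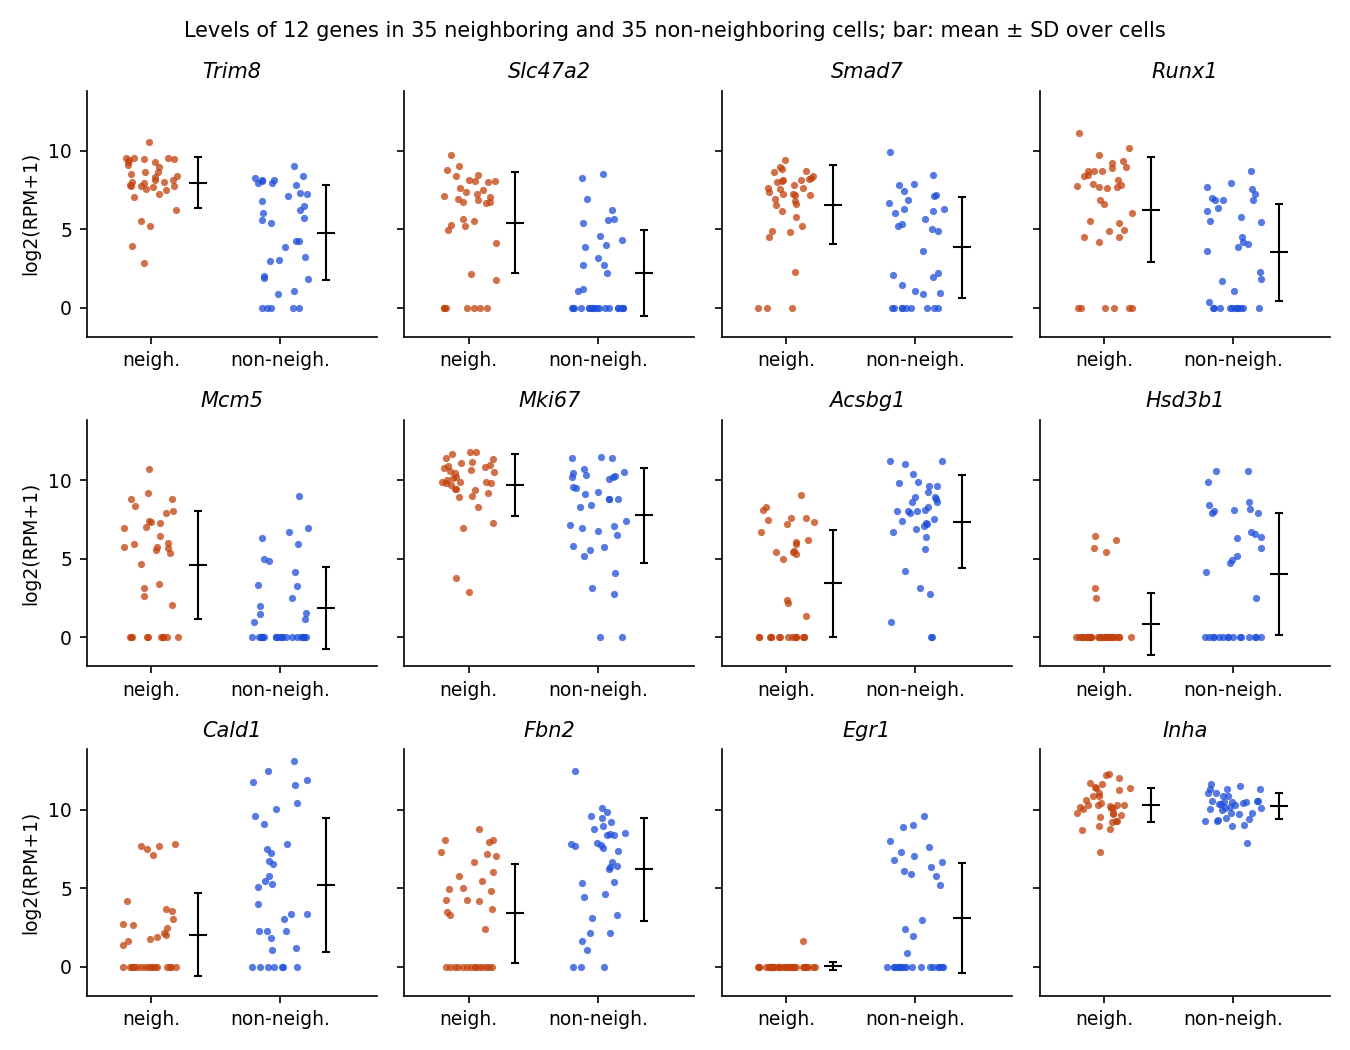
Level of 12 genes as log2 (RPM+1) in each of 35 neighboring and 35 non-neighboring cells, with 1 point per cell and bars for the mean ± SD over cells. Trim8, Slc47a2, Smad7, Runx1, Mcm5 and Mki67 lie higher in neighboring cells and Acsbg1, Hsd3b1, Cald1, Fbn2 and Egr1 higher in non-neighboring cells, with overlapping values in both classes, while Inha spans like levels in each.

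Genes of the cell cycle were higher in neighboring cells. Of 28 such genes 26 had a positive difference, where 46% of all genes had a positive and 54% a negative one. Their median was 0.93 beside -0.06 over all genes. Of the 28 genes 12 were above 1 and 5 above 1.8, beside 5.7% and 0.812% of all genes, and none was below -1. Each cell's sum over the list had a lowest, median and highest value of 1624, 4999 and 10111 RPM in neighboring and 203, 2540 and 10097 RPM in non-neighboring cells. Single cells of both classes thus reached the same sum, while the lower end was empty of neighboring cells. Mki67, the proliferation antigen Ki-67, had levels of 2.86, 10.01 and 11.83 against 0, 8.79 and 11.47, a difference of 1.94 in 5 of 7 pools. Mcm5, a subunit of the replicative helicase, had medians of 5.69 and 0 and a difference of 2.71 with reads in 25 and 16 cells, and Mcm4, another subunit, had medians of 5.20 and 1.72 and a difference of 2.29. Ccnb2, a mitotic cyclin, differed by 2.04, and Top2a, the topoisomerase of dividing cells, by 1.70. Mcm7 and Aurkb were the exceptions at -0.35 and -0.06, or 0.10 and -0.71 within pools. Oocytes also held these transcripts, with means of 9.44 for Mki67 and 5.41 for Mcm5. Without the 4 cells rich in oocyte RNA the differences were 2.20 and 2.78, and the oocyte sums of the remaining cells still had medians of 285.6 RPM in neighboring and 92.1 RPM in non-neighboring cells. The part of oocyte RNA in the cell cycle differences was not tested. The list's median was above 0 in 6 of 7 pools and 0.83 within pools, and its 15 mitotic genes, a sublist made after its values were seen, had a median of 0.85. Of the cell cycle inhibitors Cdkn1a differed by 1.33 with reads in 10 and 3 cells, and the 5 inhibitors had a median of 0.24, or 0.07 within pools.

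The promoters of Mcm5 and Mcm6 are shown because most replication genes were higher in the same class, with a median of 1.36 over 11 of them, and this sublist was made after its values were seen. The sequences were read from the RefSeq table on GRCm38.p6 and run 5′ to 3′ from 250 bases before to 50 bases after the start, and the capitals mark matches to the E2F letters TTTCCCGC, TTTGGCGC or TTTCGCGC on either strand.
Mcm5 promoter, chr8:75109259-75109558, + strand: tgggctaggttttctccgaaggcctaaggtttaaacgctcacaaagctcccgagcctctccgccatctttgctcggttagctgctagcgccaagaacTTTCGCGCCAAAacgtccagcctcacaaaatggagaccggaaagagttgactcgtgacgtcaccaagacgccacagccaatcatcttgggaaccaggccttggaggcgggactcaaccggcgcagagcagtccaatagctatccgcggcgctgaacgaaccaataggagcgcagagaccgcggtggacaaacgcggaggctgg
Mcm6 promoter, chr1:128359656-128359955, - strand: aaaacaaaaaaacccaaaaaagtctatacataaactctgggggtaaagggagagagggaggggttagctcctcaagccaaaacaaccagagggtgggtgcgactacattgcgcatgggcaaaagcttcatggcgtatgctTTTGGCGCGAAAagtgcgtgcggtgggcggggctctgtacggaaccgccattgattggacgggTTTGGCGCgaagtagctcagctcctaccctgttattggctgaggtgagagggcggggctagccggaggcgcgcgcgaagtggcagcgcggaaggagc
Mcm5 held 2 matches that overlap, which began at positions -153 and -149 from the start, and Mcm6 held 3, at -110, -106 and -47, of which the first pair overlap. Of 27025 promoters of the same length, 515 (1.91%) held at least 1 match, and of 21 promoters of the cell cycle list 5 did, namely Mcm3, Mcm5, Mcm6, Mcm7 and Cdk1. A match to the letters is a description of the sequence and not a site. Mcm6 had medians of 6.99 and 3.66 and a difference of 1.44, or 2.19 within pools, and Mcm7, which also held a match, had a difference of -0.35.

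Enzymes of glycolysis, the pathway on which the oocyte depends through its granulosa cells, were higher in neighboring cells for some of its steps. Of 20 genes 13 had a positive and 7 a negative difference. The median was 0.71, with 7 above 1, 3 above 1.8 and none below -1, beside 5.7%, 0.812% and 8.25% of all genes. This median was positive in 7 of 7 pools and 0.69 within pools. The summed RPM was 555, 1700 and 20019 at the lowest, median and highest neighboring cell and 294, 1080 and 1976 in non-neighboring cells. The highest value belonged to neighboring cell 31, and without the 4 cells rich in oocyte RNA the neighboring range ended at 3587 with a median of 1569. Pgam1, phosphoglycerate mutase, had medians of 5.55 and 1.82 and a difference of 2.21, and Tpi1, triosephosphate isomerase, had medians of 5.96 and 3.32 and a difference of 2.14, or 1.68 without those 4 cells. Eno1 (enolase) and Ldha (lactate dehydrogenase) differed by 1.99 and 1.60. Oocytes summed to a median of 4969 RPM over the glycolysis list, above both classes. Their means of Pgam1, Tpi1, Eno1 and Ldha were 2.04, 4.48, 4.42 and 1.52, below those of the neighboring cells. The part of oocyte RNA in the glycolysis differences was not tested. Gapdh, Hk2 and the lactate carrier Slc16a1 did not share the direction, with -0.09, -0.43 and -0.12, or 0.30, -1.70 and 0.61 within pools. The genome holds many processed copies of these genes, to which reads may be lost. Of 22 genes of cholesterol synthesis, which cumulus cells carry out for the oocyte, the median was -0.04 with 2 above 1, beside 5.7% of all genes. These were Insig1, a brake on the pathway, at 2.18 and Sc5d, a late enzyme, at 1.54. Insig1 was higher in neighboring cells in 4 of 7 pools, and its mean of 7.41 in oocytes was above both classes. The part of oocyte RNA in the difference of Insig1 was not tested.

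**Figure D4:**
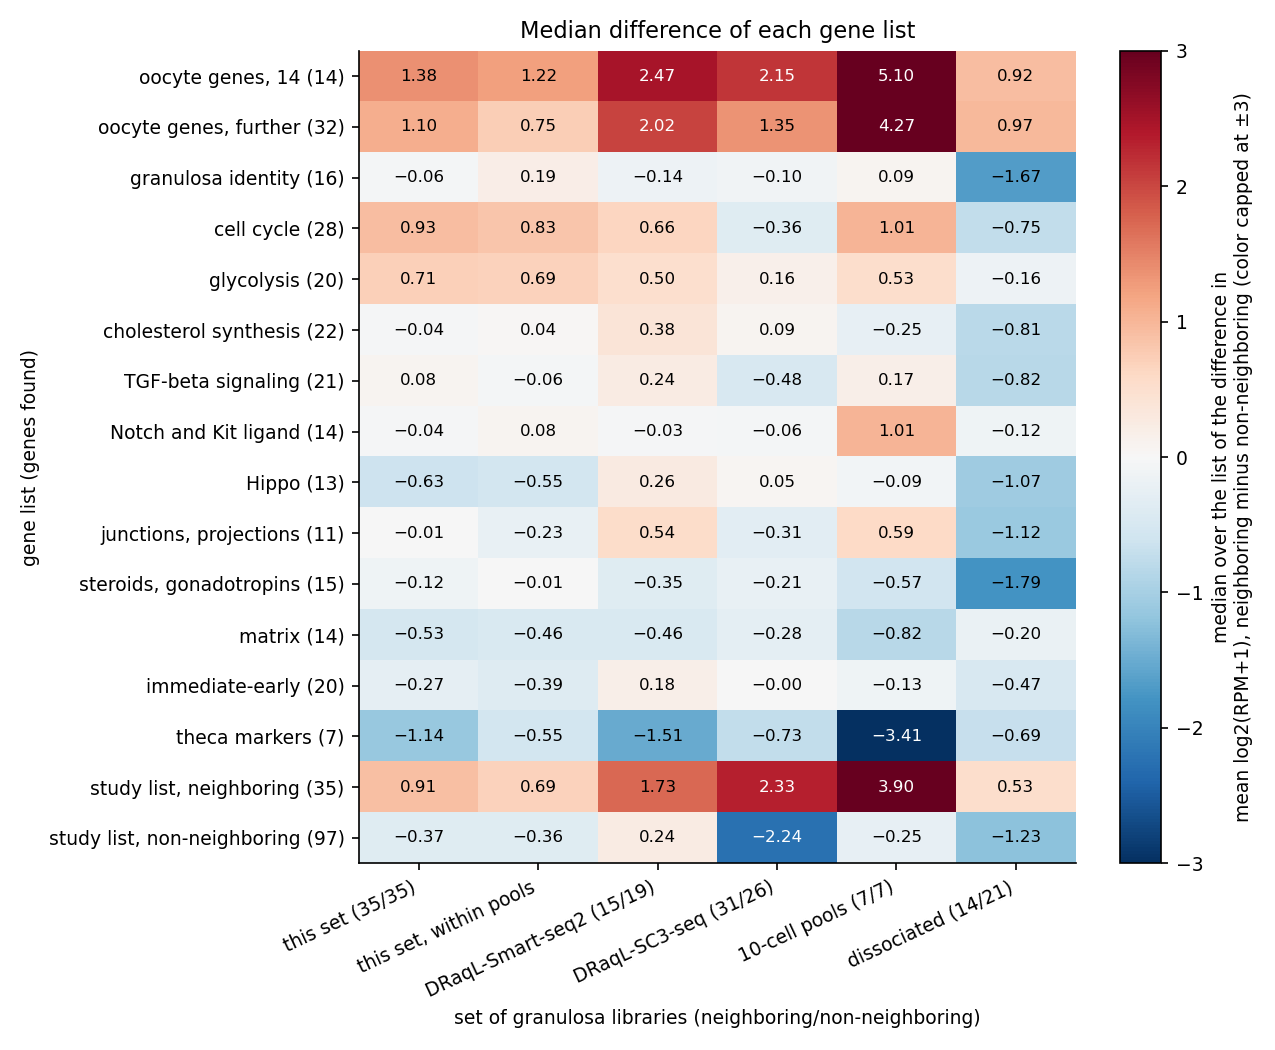
Heat map of the median difference, neighboring minus non-neighboring on the log2 (RPM+1) scale, of 16 gene lists (rows) in the cells described here, pooled and within library pools, and in 4 other sets of granulosa cells (columns), with the value printed in each field and red for higher in neighboring, where the study lists had been chosen on the DRaqL-SC3-seq cells. In the first pair of columns the oocyte, cell cycle and glycolysis lists are above 0.6 while the theca list is at -1.14 and -0.55 and the Hippo list at -0.63 and -0.55.

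Among the 21 receptors, SMADs and targets of the TGF-β family, through which GDF9 and BMP15 act, the median difference was 0.08. Of them 4 were above 1 and 1 below -1, beside 5.7% and 8.25% of all genes. The inhibitory SMADs were both higher in neighboring cells, Smad7 as given above and Smad6 by 1.63 with reads in 20 and 14 cells. The receptor-regulated Smad5 of the BMP branch and Id3, a BMP target, differed by 1.33 and 1.03, the latter by 0.54 within pools, whereas Smad3 of the activin and GDF9 branch differed by -1.46, or -0.92 within pools, with medians of 0 and 4.29. The receptors Bmpr2 and Tgfbr1 were near 0, at 0.08 and -0.01, the latter at 0.27 within pools. Of 14 Notch and Kit ligand genes, with a median of -0.04, Heyl, a Notch target, had medians of 4.96 and 0 and a difference of 2.29. Jag1, a Notch ligand, differed by 1.73, or 1.1 within pools, and its mean in oocytes was 9.46. The part of oocyte RNA in the difference of Jag1 was not tested. Kitl, the ligand by which granulosa cells act on the Kit receptor of the oocyte, was read in 6 neighboring and 17 non-neighboring cells and differed by -1.49, or -0.55 within pools.

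The lowest difference over all genes was that of Acsbg1, an acyl-CoA synthetase of long-chain fatty acids (chr9:54604877-54661870, - strand). It was read in 20 neighboring (57.1%, 39.4% to 73.7%) and 33 non-neighboring cells (94.3%, 80.8% to 99.3%), with medians of 2.35 and 8.05 and highest levels of 9.09 and 11.24. The difference was -3.93, it was -4.58 within pools, and the neighboring mean was the lower one in 7 of 7 pools. Hsd3b1, which turns pregnenolone into progesterone (chr3:98852194-98859794, - strand), was read in 6 neighboring (17.1%, 6.56% to 33.6%) and 20 non-neighboring cells (57.1%), with medians of 0 and 4.71. Its difference of -3.20 shrank to -1.80 within pools, where 4 pools had the lower mean in neighboring cells and none the higher. Hsd17b11, a dehydrogenase of steroids found on lipid droplets, had medians of 0 and 4.44 and a difference of -2.86 in 7 of 7 pools.

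The other genes of the 10 with the largest negative difference, among those with a mean of at least 4 in a class, have unlike roles. Cald1, caldesmon of actin filaments, had medians of 1.41 and 5.07 and a difference of -3.18, Ank2, an ankyrin that ties membrane proteins to spectrin, had medians of 3.64 and 7.68 and a difference of -2.89, and Fbn2, a fibrillin of microfibrils, had medians of 3.65 and 7.41 and a difference of -2.81. Beside them stood Tdrd5 at -3.39, 2410089E03Rik at -3.31, the chromatin remodeler Chd3 at -2.82 and the mRNA decapping factor Dcp1b at -2.78. Means of these 4 genes in oocytes were 8.20, 5.88, 3.43 and 0.15 in that order. Cells of both classes overlapped for each of the 10 genes, since each had at least 1 non-neighboring cell without reads. The neighboring mean was the lower one in 7 of 7 pools for Acsbg1, Tdrd5, Ank2, Hsd17b11, Chd3 and Fbn2, and in 6 for 2410089E03Rik, Cald1 and Dcp1b. Flna, filamin A, differed by -1.58, or -2.60 within pools, in 7 of 7 pools.

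Other genes of steroid synthesis and of the outer follicle gave a mixed account. Over 15 genes of gonadotropin response and steroid synthesis the median was -0.12, or -0.01 within pools. Of them 3 were below -1 and none above 1, beside 8.25% and 5.7% of all genes. Lhcgr was read in 3 neighboring and 15 non-neighboring cells and differed by -1.25, or -0.37 within pools, and Cyp11a1 was read in 4 and 10 cells and differed by -0.94, or 0.05 within pools. The direction of Cyp11a1 was thus not held within pools. When every library was thinned to the depth of the shallowest, Lhcgr was read in 2 neighboring and 5 non-neighboring cells and Cyp11a1 in 2 and 7. Fshr, the receptor of follicle-stimulating hormone, was read in 32 and 32 cells with medians of 7.96 and 7.58 and a difference of 0.36, or 1.04 within pools. The mural list of 5 genes had a median of -0.94, which was -0.05 within pools and 0 without pool 7. The cumulus list of 5 genes had a median of 0.10, which was 0.90 within pools and ran from -0.24 to 0.83 when 1 pool was left out. Neither median thus held its size within pools. Markers of theca cells moved in the same direction as Hsd3b1 and Lhcgr. Their 7 genes had a median of -1.14. Of the 6 that could be compared 5 were below -1, beside 8.25% of all genes. The list summed to 0, 27.7 and 412 RPM in neighboring cells at the lowest, median and highest and to 0, 141.8 and 7977 in non-neighboring cells. The defining Cyp17a1 was read in 2 and 9 cells. Within pools the list's median was -0.55, and without the 4 cells rich in oocyte RNA and non-neighboring cell 9 it was -0.87. Without these 5 cells Hsd3b1 differed by -3.23, Lhcgr by -0.78, Cyp11a1 by -0.42 and the mural list by a median of -0.42. The part of theca RNA in the differences of Hsd3b1, Lhcgr and Cyp11a1 was not tested. The 4 luteal genes, which share Lhcgr with other lists, had a median of -0.56, or -0.20 within pools, where 3 pools had a median above 0 and 1 below.

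Immediate-early genes, which respond within minutes to stimuli and to handling of tissue, were lower in neighboring cells for a few members. Of 20 genes 16 could be compared, of which 5 were below -1 and 2 of these below -1.8, beside 8.25% and 1.11% of all genes. None was above 1, and the median was -0.27. Egr1 was read in 1 neighboring and 18 non-neighboring cells, with a highest level of 1.61 against 9.62, and differed by -3.06. Fosl2 had medians of 0 and 4.59 and a difference of -2.49, with reads in 15 and 30 cells. Fos and Jun, which pair into the AP-1 factor, differed by -0.58 and 0.59. The sum of the list was 92 RPM at the neighboring and 242.9 RPM at the non-neighboring median, with highest values of 579 and 4001, the latter in non-neighboring cell 9, and without the 5 cells that stood apart Egr1 differed by -2.70, Fosl2 by -2.38 and the list by a median of -0.13. Of 13 genes of the Hippo pathway, with a median of -0.63, the target Ctgf was read in 3 and 17 cells and differed by -2.10.

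**Figure D5:**
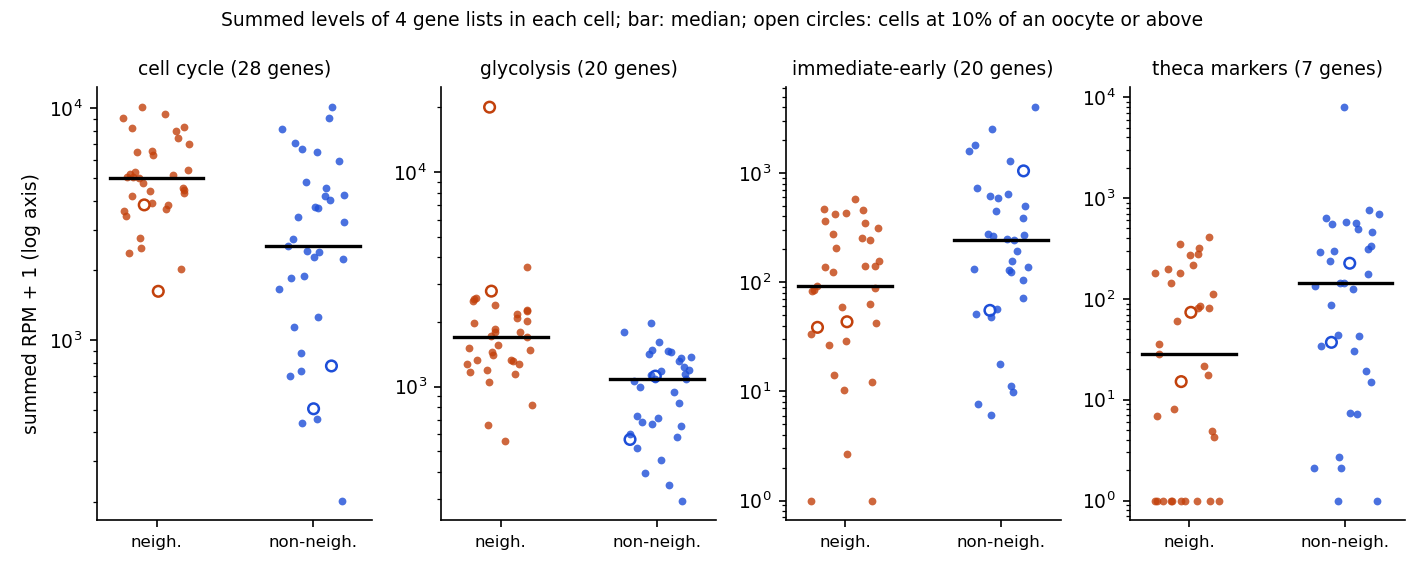
Summed RPM plus 1 of 4 gene lists in each cell on log axes, with 1 point per cell, a bar at the median and open circles for the 4 cells rich in oocyte RNA. Cell cycle and glycolysis sums have the higher median in neighboring cells (4999 against 2540 and 1700 against 1080 RPM), immediate-early and theca sums in non-neighboring cells (242.9 against 92 and 141.8 against 27.7 RPM), and the classes overlap in each.

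For most other lists the median lay close to that of all genes. The 84 cytosolic ribosomal protein genes had a median of 0.21, or -0.03 within pools. The 11 genes of junctions and transzonal processes had a median of -0.01, or -0.23 within pools, with the connexin Gja1 read in all cells at medians of 10.13 and 9.83 and N-cadherin, Cdh2, at -1.76, or -0.56 within pools. The 14 matrix genes were an exception with a median of -0.53. Of them 11 had a negative and 3 a positive difference, beside 54% and 46% of all genes. The basal lamina collagen Col4a1 at -1.37 was the 1 gene below -1 and Sparc at 1.30 the 1 above 1, beside 8.25% and 5.7% of all genes. The 12 genes of the IGF system had a median of -0.21, or -0.36 within pools, with the adaptor Irs1 at -1.65. Igfbp5, an IGF-binding protein, stood at -1.50, or -0.76 within pools and 0.03 without pool 2, with the higher mean in neighboring cells in 2 pools and the lower in 3. The apoptosis genes had a median of -0.20, or 0.03 within pools. The 16 granulosa cell genes had a median of -0.06, or 0.19 within pools, and follistatin, Fst, which binds activin, differed by 1.07. The 16 genes of cumulus expansion, of which 10 could be compared, had a median of -0.01, and Runx1 was the only one past 1. Has2 and Ptgs2, which carry out the expansion, were read in 0 and 1 neighboring and 1 and 2 non-neighboring cells. Endothelium, blood, immune and surface epithelium genes had medians of 0.01, 0.02, 0.04 and 0.04, of which blood stood at -0.12 within pools, none of them past 1, and their sums had medians of at most 2.0 RPM in either class.

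The study chose 35 genes higher in neighboring and 97 higher in non-neighboring cells from single cells of another experiment, amplified by another method, DRaqL-SC3-seq. Here 35 of 35 were found, with a median difference of 0.91, 16 above 1 and 3 below -1, beside 5.7% and 8.25% of all genes. The oocyte lists hold 14 of them, with a median of 1.54 and 11 above 1, while the other 21 had a median of 0.21, or -0.02 within pools, with 5 above 1 and 3 below -1. Serpina3a, a serine protease inhibitor, was among the 21 and had medians of 6.98 and 4.70, a difference of 2.45 in 7 of 7 pools and a mean of 1.11 in oocytes. Of the 97 genes 67 had a negative and 30 a positive difference, where 54% of all genes had a negative one. Their median was -0.37, with 18 below -1 and 3 above 1, beside 8.25% and 5.7% of all genes. Pde7b, a phosphodiesterase of cyclic AMP, had medians of 7.80 and 10.31 and a difference of -2.12, and Itih5, which binds hyaluronan, had medians of 0 and 3.06 and a difference of -2.17. The 13 genes that the study names in its text had a median of -0.37, or -0.79 within pools, and Suz12 and Jarid2, subunits of a repressive chromatin complex, differed by 0.58 and -0.03, or 1.14 and -0.13 within pools.

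The 20 genes chosen above by the size of their difference were also looked up in 4 other sets of granulosa cells grouped by position. Values there are differences of means in the same sense. Further sets with position labels were not looked up, namely SMART-Seq v4 with and without DRaqL, LCM-seq and formalin-fixed cells. The dissociated cells came from cumulus-oocyte complexes of the other ovary of the same mouse, isolated in medium with a cyclic AMP analog. Their classes were cells attached to the oocyte and other cells of the complexes, which is not the same contrast as position in a section. The other 3 sets were cut by LCM in other parts of the study. From the DRaqL-SC3-seq cells the paper had removed those with profiles mixed with oocytes, whereas no cell was removed here for that reason. The paper states that the methods it compared, DRaqL-SC3-seq and DRaqL-Smart-seq2 among them, used sections of a single ovary. These sets may therefore not be independent of each other. Of the 10 higher in neighboring cells here, 5 had the same sign in 31 and 26 DRaqL-SC3-seq cells, 10 in 15 and 19 DRaqL-Smart-seq2 cells, 7 in 14 and 21 dissociated cells and 10 in 7 and 7 pools of 10 cells. Of the 10 lower ones the counts were 9, 9, 9 and 10. As background, 54.8%, 55.4%, 51.9% and 57% of the 3520 genes with a mean of at least 4 had the same sign in these sets, and in the dissociated cells 9990 of the 15020 genes were lower and 3319 higher in the neighboring class. Smad7 differed by 0.91, 1.99, 0.73 and 1.82 in these sets in that order, and Acsbg1 by -1.17, -3.47, -4.57 and -1.76. Both kept their direction in all 4. Hsd3b1 differed by -3.09, -6.90, -6.76 and -5.86, and Trim8 by 1.13, 3.77, -0.85 and 0.40. The cell cycle list had medians of -0.36, 0.66, -0.75 and 1.01 and glycolysis of 0.16, 0.50, -0.16 and 0.53. Over all 15020 genes the medians were -0.09, 0.06, -0.43 and 0. The sign of both lists was thus not shared by all 4 sets, and it includes the shift of all genes in each set. Over the same 3520 genes, where genes are not independent, r with the differences described here was 0.18, 0.30, 0.16 and 0.30, and the medians of all these genes in the sets were -0.27, 0.16, -1.16 and -0.05.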

How the data were processed

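Single-cell 3′ RNA-seq was read for 70 LCM granulosa cells and 8 LCM oocytes of 1 mouse. The authors deposited raw read counts per protein-coding gene without normalization. The submitters' processing notes name fastp 0.20.0, cutadapt 1.16, HISAT2 2.1.0, HTSeq 0.10.0 and GRCm38, and reads within 10 kb of annotated 3′ ends were counted. The authors kept granulosa cells with at least 100000 reads and 3000 genes, and 7 neighboring and 3 non-neighboring libraries held fewer counted reads than 100000 in the table. Reads carry no molecular identifiers, and no strand setting of the counting is given in the sources used here.

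Reads of a gene were scaled to the sum over the 22060 protein-coding genes of its library (RPM) and taken as log2 (RPM+1). A gene entered the comparison above 4 in at least 1 cell, and sizes of 1.8 and 1 were used in place of a test. Named genes were the 13 genes named in the study, Inha, Gdf9 and Zp3, the 10 most different genes on either side among those averaging 4 or more in 1 class, up to 4 genes of the largest absolute difference in each of 28 lists, and 5 in each direction in the study lists. Other list members printed here were chosen after their values were seen. Members and lists were chosen with earlier results of these data known. Gene positions are from GENCODE vM21 and promoters from RefSeq on GRCm38.p6. The 4 sets compared with these cells are deposited counts processed in the same way, in which 104 further columns were not used. ERCC spike-ins were not used here.

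Alternatives were other pseudocounts, TMM scaling, other filters and sizes, thinning, leaving out pools or cells, and ratios of mean RPM. The calculation was tested on simulated data. TMM factors came from edgeR 4.0.16 under R 4.3.3. All else was computed with scipy 1.17.1, pandas 2.3.3 and numpy 2.4.6 under python 3.11.15.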

Additional observations from a re-analysis of the deposited data

Results flagged for a closer look

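Among the 8 oocytes, which served as the reference for oocyte RNA, oocyte 8 held 14665 RPM over the 14 oocyte genes, where the next lowest held 23102 and the median was 26813. The gap was 0.563 of the range of the 8 values, which is above Dixon's 95% limit for a group of this size, and chance alone passes this limit in about 1 in 20 groups for a single group. The lowest and the highest oocyte were checked in this way for 7 measures, and 1 of these 14 values passed. The threshold for cells rich in oocyte RNA was a share of the median, which does not rest on this oocyte.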

How the results depend on the processing

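The share of genes past 1.8, 0.812% higher (122) and 1.11% lower (166) in neighboring cells, depended on scale and depth. It was 2.80% and 5.75% with a pseudocount of 0.1 (420 and 863 genes), 0.040% and 0.060% with 10 (6 and 9), 0.422% and 1.81% with TMM (64 and 275), 2.27% and 3.01% of the 3520 genes with a mean of at least 4, and 5.70% and 8.25% at a difference above 1 (856 and 1239). Within pools 2.31% (347) were lower, and at equal depth 1.49% (225) were higher. Leaving out a library pool gave 0.965% to 1.70% higher and 1.11% to 2.67% lower, the upper ends without pool 2 (250 genes) and without pool 7 (393 genes). Without the 4 cells rich in oocyte RNA 119 were higher and 219 lower, and without non-neighboring cell 9 as well, an alternative chosen after seeing the data, 217 were lower. With a threshold of 5%, 10 cells were rich in oocyte RNA. The difference in oocyte RNA ran from 1.46 to 3.02, the glycolysis median from 0.39 to 0.85, the cell cycle median from 0.53 to 1.30, and the medians of the study lists from -0.64 to -0.02 and 0.21 to 1.03. The gap in detected genes ran from -951 to -9.14. H1foo turned to -0.077 as a log2 ratio of mean RPM, a mean in which non-neighboring cell 20 held 7813 RPM.

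No paired analysis was possible because single cells of the classes carry no number that pairs them and no test was made, and the differences within library pools are a description. Follicle, follicle stage and section were not given per cell in the sources used here, so that differences between follicles and between positions cannot be told apart. Shallow libraries put many cells at 0 for genes below about 4, where a level of 0 does not show absence.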
